A study of Mus musculus with 12 samples.

Results

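The kappa light chain variable genes (Igkv genes) were followed across lung and spleen of wild-type (WT) and integrin β3-deficient mice. Every gene whose symbol is Igkv followed by a number was taken, which gave 100 genes out of 22479 listed in the lung tables and 22562 in the spleen tables. The tables hold only an Ensembl identifier for these rows, so the symbols came from GENCODE M39. All 100 are annotated as immunoglobulin variable genes (IG_V_gene), and the 60 Igkv pseudogenes of that annotation were not analysed here. Lung and spleen were taken from the same 3 WT mice (C57BL/6) and the same 3 β3-/- mice (ITGB3 KO, on the C57BL/6 background, referred to as KO), 1 library per mouse and tissue and 12 libraries in all. The mice were untreated, 8 to 10 weeks old and kept under specific pathogen-free conditions. The deletion is constitutive rather than confined to a cell type, and the KO mice came from another source than the purchased WT mice. The 4 Y-linked genes examined were at 0 in all KO libraries and summed to 57.4 to 66.6 FPKM in WT libraries, so genotype, sex and source of the mice cannot be told apart.

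A B cell builds its light chain gene by joining 1 Igkv gene to 1 short Igkj segment ahead of the constant exon Igkc. The RAG recombinase makes this cut at a recombination signal directly behind the V exon, formed by a heptamer, a spacer and a nonamer. A rearranged kappa gene is transcribed from the promoter of its Igkv gene, at a moderate level in B cells and at a very high level in antibody-secreting plasma cells. Bulk Igkv levels therefore add up how many B-lineage cells carry a given gene and how much RNA each makes, and these cannot be told apart here. Families (the number after Igkv) group genes with similar V exons.

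The 100 genes lie on chromosome 6 of GRCm39, from 67532481 to 70681161, with 38 on the plus strand and 62 on the minus strand. They end 18.4 to 3166 kb before Igkj1. They fall into 20 families, of which Igkv4 is the largest with 26 genes, followed by Igkv1 and Igkv8 with 10 genes each and Igkv3 and Igkv6 with 9 each. The second number of a symbol counts genes from the Igkj side, and it rises with distance from Igkj1 in 99 of the 99 pairs of neighbouring members. The 28 bases that follow each V exon were read from GRCm39 and compared with the heptamer CACAGTG, a spacer of 12 bases and the nonamer ACAAAAACC. All 100 stretches begin with CAC, 87 hold the exact heptamer, and 34 hold the exact nonamer. The signals below are those of genes that lead the results, of scarce genes with a variant signal, and of Igkv3-9, a scarce gene with an intact signal, given 5′ to 3′ with heptamer and nonamer in capitals and the spacer in lower case.
Igkv1-117 (chr6:68098812-68098839, plus strand): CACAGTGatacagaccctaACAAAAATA
Igkv10-96 (chr6:68608919-68608946, minus strand): CACAATGatataagtcataACATAAACC
Igkv4-90 (chr6:68784135-68784162, minus strand): CACAATGatacagactggaACAAAAACC
Igkv5-39 (chr6:69877380-69877407, minus strand): CACAATGatgcagaccataGCAAAAACC
Igkv8-16 (chr6:70363628-70363655, minus strand): CACAGTGcttcagcctcctACACAAACC
Igkv4-79 (chr6:69019928-69019955, minus strand): CACAGTGaaacagactagaACAAAAACC
Igkv6-15 (chr6:70383425-70383452, minus strand): CACAGTActtcagcctcctACATAAACC
Igkv1-131 (chr6:67742992-67743019, minus strand): CACAGACcctaacaaaaacTTCCTTGCC
Igkv8-26 (chr6:70170782-70170809, plus strand): CACAGAGcttcagccgcctACACAAACC
Igkv8-18 (chr6:70333430-70333457, plus strand): CACAGAGcttcagctgcctACACAAACC
Igkv1-35 (chr6:69987905-69987932, minus strand): CACAGTGatatagacactaAAAAAAAAA
Igkv4-62 (chr6:69376768-69376795, minus strand): CACAGTGatacagactggaACCCTCTAA
Igkv3-9 (chr6:70565762-70565789, plus strand): CACAGTGctccagggctggACAAAAACC

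Igkv1-117, Igkv10-96 and Igkv5-39 were among the most abundant members, Igkv4-90, Igkv8-16 and Igkv4-79 stand at the ends of the genotype comparisons, and Igkv6-15 carries a heptamer that ends in A. The other 6 did not exceed 10.6 FPKM in any library. The heptamer CACAATG occurs in 6 members, whose mean in WT spleen ran from 8.93 to 445 FPKM with a median of 72.1 FPKM, against a median of 28.2 FPKM for the 87 members with CACAGTG. The heptamer CACAGAG occurs in Igkv8-26 and Igkv8-18, with means of 0.0854 and 2.64 FPKM in WT spleen. Igkv1-131 has CACAGAC and 7 mismatches in the nonamer position, although the run acaaaaac stands in its spacer. From its second base on, nearly all of the stretch through that run also stands in the Igkv1-117 signal, across spacer and nonamer. The window read for Igkv1-131 may therefore start inside its spacer, and the bases upstream were not searched. Igkv1-131 was at 0 in all 6 spleen libraries. Igkv1-35 (a run of A in place of the nonamer) had 0.0996 FPKM in WT spleen, and Igkv4-62 (7 mismatches in the nonamer as well) had 1.54 FPKM. An intact signal did not go with a high level in every case, since Igkv3-9 holds both exact motifs and stayed at or below 0.908 FPKM in the 12 libraries. Altogether 4 members stayed below 1 FPKM in every library, namely Igkv1-131, Igkv8-26, Igkv1-35 and Igkv3-9, of which the last 2 have the exact heptamer.

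The promoters of immunoglobulin genes carry the octamer ATTTGCAT, the binding motif of Oct-1 and Oct-2. Within 250 bases before and 50 bases after the annotated gene start (both strands searched), 73 of the 100 members held it, against 1.68% of the starts of 21770 protein-coding genes. All 73 matches were in the direction of the gene. The examples shown are the most abundant KO spleen member and the member with the largest lung difference, with the octamer in capitals.
Igkv10-96 (chr6:68609490-68609517, minus strand): gttcccaaaaATTTGCATgctctcactt
Igkv4-90 (chr6:68784783-68784810, minus strand): atatcttgctATTTGCATatatcatctt

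The 27 members without an exact match included all 9 Igkv6 and all 10 Igkv8 genes, as well as Igkv1-117 and Igkv1-110. Their median in WT spleen was 27.6 FPKM, close to the 33.3 FPKM of the 73 members with the octamer.

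Values are FPKM (fragments scaled to gene length and to the mapped fragments of the library) as the authors deposited them. Without counts the depth of a library is unknown, and precision rests on the spread between mice. Library sums ran from 455850 to 489157 FPKM in lung and from 494298 to 593175 FPKM in spleen. Itgb3, the disrupted gene, had 3.68, 4.39 and 4.14 FPKM in WT lung and 1.94, 1.34 and 1.29 FPKM in KO lung, and 10.6, 8.95 and 8.5 against 3.57, 4.02 and 3.52 FPKM in spleen. Its log2 fold change was -1.38 in lung (adjusted p = 0.064) and -1.31 in spleen (adjusted p = 0.0055), so RNA from the locus was lower in KO but not absent. The surfactant and airway genes Sftpc and Scgb1a1 were at 13053 FPKM or more in every lung and at 0.523 FPKM or less in every spleen, and Tlx1, a transcription factor of the spleen, was at 0 in every lung. Lung libraries split by ubiquitin B (Ubb) into 3 with 570 to 688 FPKM (WT mice 1 and 2, KO mouse 3) and 3 with 4.52 to 4.97 FPKM. Exocrine pancreas transcripts stood out in the spleens of WT mouse 2 and KO mouse 2 (7 genes summing to 1452 and 167 FPKM, at most 25.7 FPKM in the others). None of the 7 pancreas genes passed between the genotypes in either tissue. Of the lung epithelium genes, none of the 6 passed in lung and none of the 3 that were tested passed in spleen. Nothing in the labels marks either split as a batch.

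Igkv transcripts were several times more abundant in KO than in WT mice in both tissues. The 100 genes summed to 231, 263 and 209 FPKM in WT lungs 1, 2 and 3 and to 1059, 881 and 1284 FPKM in KO lungs. In spleen the sums were 5096, 5474 and 5943 FPKM in WT and 12227, 12104 and 16763 FPKM in KO. The groups did not overlap in either tissue. The KO mean was 4.59 times the WT mean in lung and 2.49 times in spleen, and the lowest KO library exceeded the highest WT library 3.35-fold and 2.04-fold. Within the lung libraries of high Ubb the ratio was 5.20 (2 WT, 1 KO), and within those of low Ubb it was 4.65 (1 WT, 2 KO). A spleen held 20.8 to 28.5 times the Igkv signal of the lung of the same mouse in WT and 11.5 to 13.7 times in KO.

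**Figure D1:**
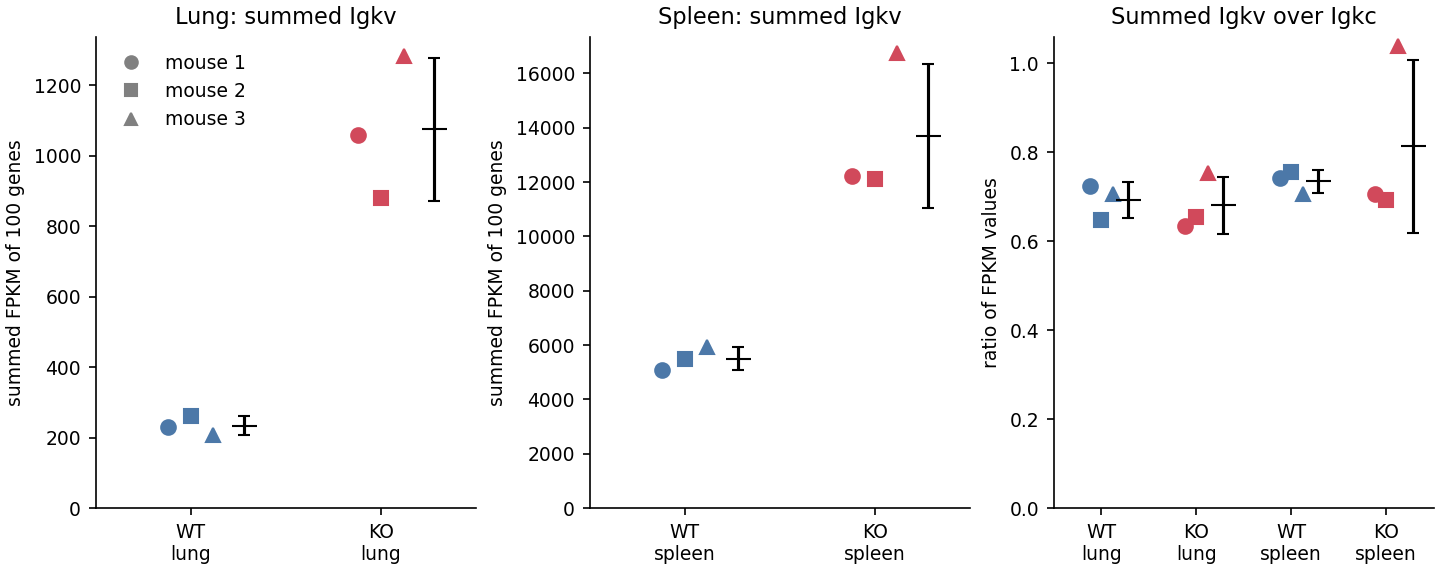
Summed FPKM of the 100 Igkv genes in lung and in spleen, and the ratio of that sum to Igkc, for each library (blue WT, red KO, marker shape for the mouse; black bars give mean ± SD, n = 3). KO sums lie above WT sums in both tissues, while the ratio to Igkc stays between 0.63 and 0.76 in 11 libraries and reaches 1.04 in the spleen of KO mouse 3.

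Igkc, the single constant exon of every kappa chain, had 319, 406 and 295 FPKM in WT lung and 1670.3, 1348 and 1703 FPKM in KO lung (log2 fold change 2.22, SE 0.17, adjusted p = 0.0074, limma), and 6869, 7242 and 8413 against 17286, 17444 and 16136 FPKM in spleen (log2 fold change 1.18, SE 0.20, adjusted p = 0.031). The ratio of summed Igkv to Igkc was 0.724, 0.648 and 0.707 in WT lung, 0.634, 0.654 and 0.754 in KO lung, 0.742, 0.756 and 0.706 in WT spleen and 0.707, 0.694 and 1.04 in KO spleen. WT and KO overlapped in both tissues, and the 1 value that stands apart belongs to KO mouse 3, whose lung had the highest ratio of the 6 lungs.

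Igkv1-117, Igkv10-96, Igkv1-110 and Igkv1-135 were among the 8 highest in all 4 groups. In WT lung they averaged 13.5 ± 5.10, 12.9 ± 0.731, 10.2 ± 3.82 and 11.9 ± 3.55 FPKM (SD, n = 3), and in KO lung 72.4 ± 21.8, 79.2 ± 26.5, 71.7 ± 11.1 and 49.1 ± 19 FPKM. WT spleen had the same leaders, with Igkv1-117 at 453 ± 199.7 FPKM and Igkv10-96 at 282 ± 43.5 FPKM, but Igkv5-39 ranked second with 445 ± 238 FPKM. In KO spleen Igkv10-96 was first with 1004 ± 177 FPKM, and Igkv4-55 entered the leading group with 411 ± 185 FPKM. The single most abundant member took between 5.78% and 11.7% of the Igkv signal of a library, and the 10 most abundant took between 38.5% and 47.7%.

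In lung, most members were higher in KO. Of the 100 members, 89 reached 0.1 FPKM in at least 3 of the 6 lungs and were tested, and 85 of these had a positive log2 fold change. The tested members had a median log2 fold change of 1.87, beside −0.02 over the 15869 genes tested. After adjustment over all genes (limma, adjusted p below 0.05 and a log2 fold change above 1) 12 rose and 0 fell, where 0.284% of all tested genes rose and 0.0315% fell. At an unadjusted p below 0.05, 63 members were higher and 1 was lower in KO, beside 4.95% and 7.7% of all genes. KO libraries lay above WT libraries without overlap in 61 members, against 6.86% of all genes, and below them in 2, against 12.6%. A member could pass the filter through the KO libraries alone, so these counts describe the 89 that passed and not all 100.

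The 12 genes that rose came from 9 families. Igkv4-68 had 2.4, 1.15 and 1.54 FPKM in WT and 15.4, 11.4 and 16.3 FPKM in KO lung (log2 fold change 3.05, SE 0.27, adjusted p = 0.011). Igkv1-110 had 6.64, 9.65 and 14.2 FPKM against 84.3, 63.7 and 67.1 FPKM (log2 fold change 2.86, SE 0.27, adjusted p = 0.011). For Igkv10-96 the values were 13.4, 13.3 and 12 FPKM and 71.5, 57.4 and 109 FPKM (log2 fold change 2.56, SE 0.22, adjusted p = 0.0093), and the KO lungs lay far above the WT lungs. Igkv12-46 rose with little spread between mice, from 5.03, 5.02 and 4.11 to 15.6, 17.7 and 15.5 FPKM (log2 fold change 1.77, SE 0.12, adjusted p = 0.0044), and it was the 1 member that passed in all 19 alternative analyses. Igkv16-104, Igkv4-55, Igkv3-12, Igkv1-117, Igkv6-25, Igkv14-111, Igkv8-21 and Igkv6-15 also rose, with log2 fold changes of 2.83, 2.74, 2.62, 2.43, 2.42, 2.15, 2.02 and 2.02. In each of the 12 the lowest KO lung exceeded the highest WT lung.

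The largest lung differences did not pass, and the libraries of a genotype differed widely in them. Igkv4-90 had 1.32, 0 and 0 FPKM in WT and 7.36, 2.15 and 39.9 FPKM in KO lung (log2 fold change 5.18, SE 1.36, adjusted p = 0.22). Igkv8-28 (1.23, 0 and 0.512 against 13.3, 9.05 and 7.14 FPKM), Igkv3-1 (0.422, 0 and 0.783 against 3.95, 2.22 and 15.2 FPKM), Igkv4-80 (0.602, 0.371 and 0 against 2.89, 9.24 and 3.17 FPKM) and Igkv1-99 (0.521, 0.698 and 0.119 against 4.07, 1.3 and 20.8 FPKM) followed, with adjusted p between 0.13 and 0.25. All 5 were separated by genotype, with WT libraries near or at 0. At the other end, Igkv4-81 (0.193, 0.215 and 0.316 against 0, 0.137 and 0.0183 FPKM) and Igkv4-79 (1.08, 1.34 and 0.777 against 0.626, 0.748 and 0.573 FPKM) were the 2 members whose KO values all lay below WT, with adjusted p of 0.33 and 0.40. Igkv4-51, Igkv4-61 and Igkv9-123 came next with log2 fold changes of -0.39, -0.27 and 0.10, and none of these 3 exceeded 5.65 FPKM in any lung. Igkv19-93 stood apart among the abundant genes, with 9.24, 11 and 12.5 FPKM in WT and 6.67, 12.7 and 27.3 FPKM in KO lung (log2 fold change 0.29, SE 0.46, adjusted p = 0.85), and its groups overlapped. The number of members passing fell from 12 to 4, 7, 6 and 6 without WT lung 1, WT lung 3, KO lung 1 and KO lung 3 in turn. With the Ubb group as a term it was 16. Over all genes, calls fell from 50 to 7, 25, 22 and 27 without those lungs in turn, and numbered 53 with the Ubb term.

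In spleen, 98 members were tested, and 38 rose and 1 fell, where 2.64% of the 15480 tested genes rose and 0.678% fell. The members' median log2 fold change was 1.24 beside −0.16 over all genes. Median-of-ratios scaling, which brought the median of all genes close to 0, gave the members a median of 1.41. KO spleens lay above WT spleens without overlap in 55 members (11.4% of all genes) and below them in 1 (32% of all genes). At an unadjusted p below 0.05, 57 members were higher and 2 lower, beside 9.67% and 26.3% of all genes. Positive log2 fold changes were seen in 87 of the 98.

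Igkv4-55 showed one of the largest increases, from 38.8, 40.4 and 25.1 FPKM in WT to 509, 527 and 198 FPKM in KO spleen (log2 fold change 3.46, SE 0.38, adjusted p = 0.0083). Igkv4-68 had little spread within a genotype, with 36.6, 39 and 37 FPKM in WT and 151, 135 and 151 FPKM in KO (log2 fold change 1.95, SE 0.08, adjusted p = 6.1e-05). Igkv1-99 had the largest log2 fold change, 3.79 (SE 0.82, adjusted p = 0.041), with 7.61, 7.6 and 6.32 FPKM in WT and 23.1, 311 and 138 FPKM in KO, and its KO spleens spanned more than an order of magnitude. Igkv6-14 rose from 11.3, 11.5 and 29.2 to 103, 95.6 and 203 FPKM (log2 fold change 3.00, SE 0.42, adjusted p = 0.020), and Igkv6-23 from 61.7, 60.0 and 75.4 to 461, 481 and 228 FPKM (log2 fold change 2.50, SE 0.28, adjusted p = 0.0083). Other increases were found in Igkv6-25, Igkv4-74, Igkv4-57-1, Igkv12-41, Igkv3-4 and the scarce Igkv3-3, with log2 fold changes of 2.58, 2.43, 2.41, 2.40, 2.11 and 2.70. Igkv10-96 and Igkv1-110 rose again (1.83 and 1.79), and Igkv8-30, with 92, 119 and 102 FPKM in WT and 285, 348 and 337 FPKM in KO, passed in every alternative analysis together with Igkv12-46, Igkv4-68, Igkv4-74 and Igkv8-21.

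Igkv8-16 was the single member that fell in spleen. It had 56.6, 43.4 and 88 FPKM in WT and 9.24, 11.2 and 28.7 FPKM in KO spleen (log2 fold change -2.06, SE 0.43, adjusted p = 0.040), and the groups did not overlap. It passed in 10 of 19 alternative analyses and kept its sign in all. Igkv5-39, the second most abundant WT member, had 217, 424 and 692 FPKM in WT and 162, 223 and 271 FPKM in KO spleen (log2 fold change -0.90, SE 0.40, adjusted p = 0.15), with overlap. Igkv2-137 (137, 78.9 and 153 against 72.7, 86.7 and 81.9 FPKM) and Igkv4-86 (129, 179.9 and 124 against 161, 101 and 160.3 FPKM) did not pass, with adjusted p of 0.13 and 0.89. Igkv9-123 and Igkv4-92 had log2 fold changes of -1.09 and -0.55 with adjusted p of 0.43 and 0.54. The WT leader Igkv1-117 had 326, 349 and 683 FPKM in WT and 506, 746 and 1423 FPKM in KO (log2 fold change 0.93, SE 0.41, adjusted p = 0.15), and overlapped through WT mouse 3. In place of 39, the members passing in spleen numbered 11, 12, 25 and 23 without WT spleen 2, WT spleen 3, KO spleen 1 and KO spleen 3 in turn. They numbered 7 without the 2 spleens that held pancreas transcripts (WT 2 and KO 2). Calls fell across all genes as well, from 514 to 68, 57, 155 and 117 without those libraries in turn, and to 51 without the 2 spleens.

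**Figure D2:**
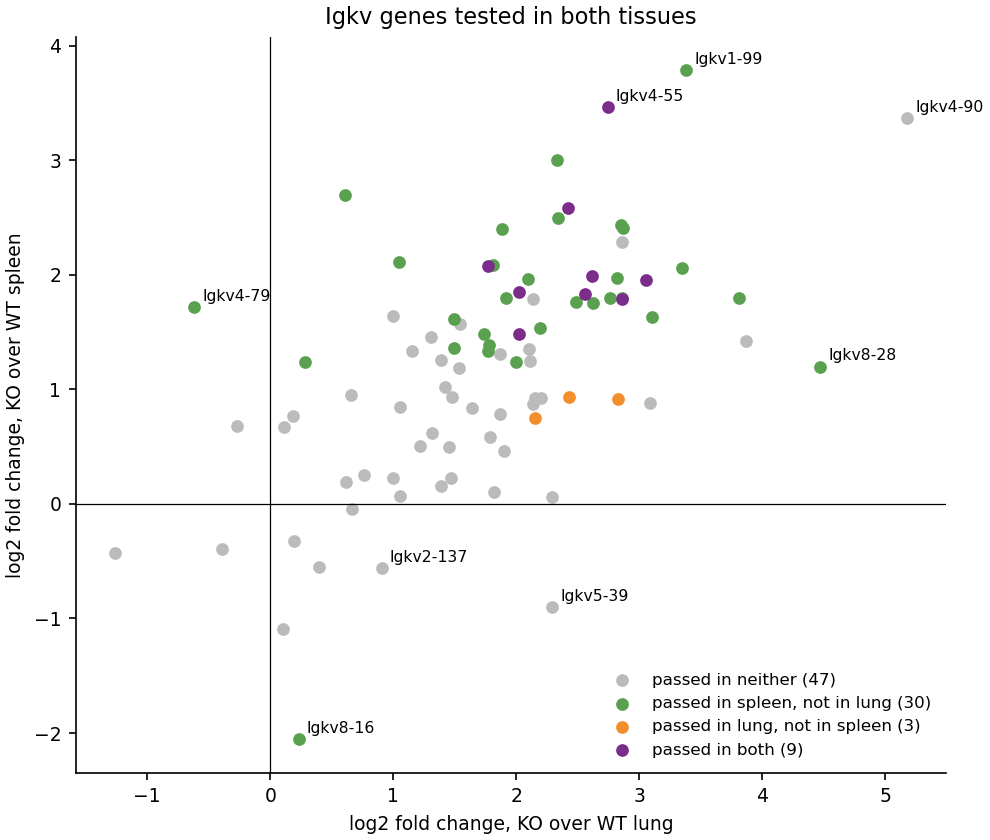
Log2 fold change (KO over WT) of the 89 Igkv genes tested in both tissues, lung on the horizontal and spleen on the vertical axis, coloured by whether the gene passed adjusted p below 0.05 with an absolute log2 fold change above 1. Most points lie in the upper right quadrant, 9 genes passed in both tissues, and Igkv8-16, Igkv5-39 and Igkv4-79 lie outside the cloud.

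The 9 genes that rose in both tissues were Igkv4-68, Igkv1-110, Igkv4-55, Igkv3-12, Igkv10-96, Igkv6-25, Igkv8-21, Igkv6-15 and Igkv12-46, that is 75.0% of the 12 lung genes and 23.7% of the 38 spleen genes. Over all 14445 genes tested in both tissues, 0.242% rose in both, which is 79.5% of the lung and 9.64% of the spleen genes that rose. Libraries did not overlap, with KO above WT, in both tissues for 45 of the 89 members tested in both, against 2.12% of the 14445 genes tested in both. Whether the genotype effect differed between the tissues was tested as an interaction over 16312 genes. Igkv4-79 alone passed, with an effect lower in lung than in spleen by 2.33 on the log2 scale (log2 difference −2.33, SE 0.38, adjusted p = 0.035, limma), where 0.215% of all genes were lower and 0.202% higher in lung. It had 7.87, 9.35 and 6.92 FPKM in WT and 31, 17 and 35 FPKM in KO spleen, and the lung values given above. Because lung and spleen came from the same mice, the fit was repeated with the mouse as a block. Igkv4-79 then had an adjusted p of 0.071, and Igkv4-53 passed in its place with a larger effect in lung (log2 difference 2.20, adjusted p = 0.027), with 1.4, 1.5 and 1.47 against 7.93, 10.2 and 27.8 FPKM in lung and 73, 45.3 and 60.2 against 80.8, 75.5 and 206 FPKM in spleen. Igkv5-39 had a log2 fold change of 2.29 in lung and -0.90 in spleen, a log2 difference of 3.19 (adjusted p = 0.061, and 0.074 with the block). No member passed with the Ubb group as a term, without WT lung 1 or 2, without any 1 KO lung, or without WT spleen 3, KO spleen 1 or KO spleen 3.

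By family, shares of the Igkv signal were compared to see whether the mixture of genes differed. Igkv1 took the largest mean share, 14.7, 18.1 and 17% of the Igkv signal in WT lung and 20.9, 17.2 and 20.1% in KO lung, with 16.5, 14.8 and 21% and 14.6, 18 and 21% in spleen, and overlapped in both tissues. Igkv4 was next in spleen, with 14.9, 14.9 and 13.5% in WT and 18.3, 16.3 and 16.3% in KO and no overlap, whereas in lung (12.5, 11.6 and 14.4% against 14.3, 14 and 19.3%) the groups overlapped. Igkv6 held 9.42, 8.28 and 8.29% of the WT and 13, 11.9 and 12.1% of the KO spleen signal, and 6 of its 9 genes rose there. In lung it held 17.7, 11.7 and 12.1% in WT and 16.5, 13.8 and 11.7% in KO. Igkv12 had 4.56, 4.92 and 5.06% in WT and 7.61, 6.34 and 6.43% in KO spleen, where 5 of its 6 genes rose. Of the 26 Igkv4 genes, 8 rose in spleen. These counts stand beside 38 of the 98 tested members and 2.64% of all tested genes. Igkv4, Igkv6 and Igkv12 took a larger share in every KO spleen than in any WT spleen.

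Igkv5, Igkv8, Igkv14 and Igkv2 took a smaller share in every KO spleen than in any WT spleen. Igkv5 had 7.77, 10.2 and 14.4% in WT and 6.01, 7.21 and 3.29% in KO spleen, and Igkv5-39 alone took 4.26, 7.75 and 11.6% of the signal in the WT spleens, while 3 of the other 4 genes rose. Igkv8 had 8.9, 8.57 and 8.26% in WT and 6.65, 6.53 and 5.6% in KO. Of its 10 genes 3 rose and Igkv8-16 fell. Igkv14 had 4.52, 5.77 and 4.01% against 3.58, 2.53 and 2.51% and Igkv2 4.7, 2.69 and 4.09% against 1.69, 1.73 and 2.07%, and none of their genes passed in spleen. The single Igkv7 gene, Igkv7-33, also took a smaller share in every KO spleen. In lung the shares that did not overlap were those of Igkv19, with 4.0, 4.19 and 5.99% in WT and 0.630, 1.44 and 2.12% in KO, of Igkv3 (7.35, 11 and 7.34% against 6.17, 6.3 and 5.76%) and of Igkv10 (7.6, 6.75 and 7.45% against 8.69, 8.47 and 9.47%). Igkv19 consists of Igkv19-93, the gene whose lung level did not follow the rest. Shares are bound to sum to a whole, so a family can lose share while its level rises, and no test was applied to them. With 3 against 3 libraries an exact permutation test of a single share cannot go below 0.10. Across 20 families some separated shares can therefore arise without a genotype difference.

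**Figure D3:**
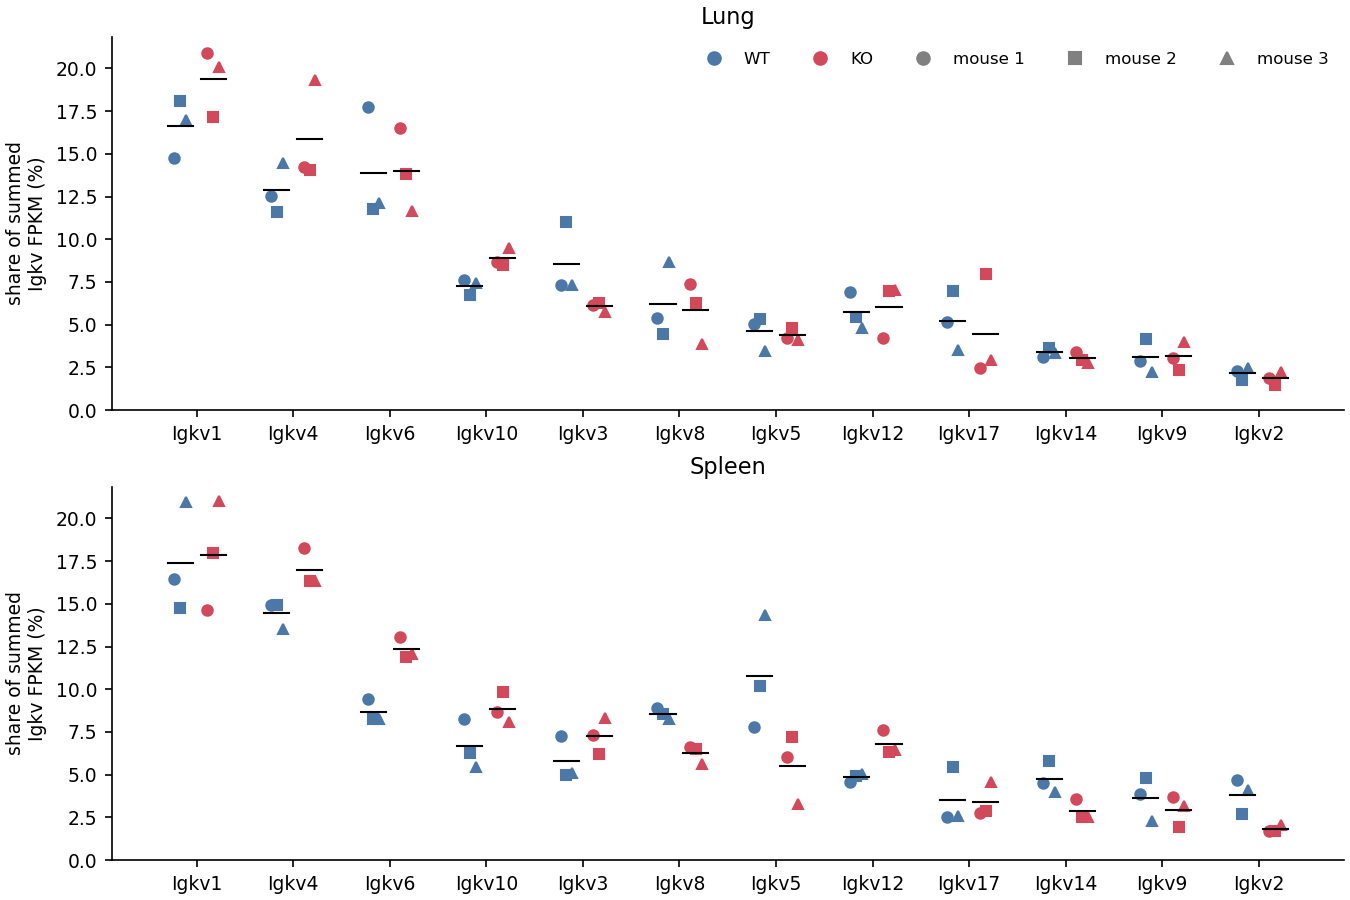
Share of the summed Igkv FPKM (%) held by the 12 largest Igkv families in each library, lung above and spleen below (blue WT, red KO, marker shape for the mouse, black line for the mean of 3). In spleen Igkv4, Igkv6 and Igkv12 sit higher and Igkv5, Igkv8, Igkv14 and Igkv2 lower in all KO mice than in any WT mouse.

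Usage stayed broad in every library. The effective number of genes (the exponential of the Shannon entropy, which would be 100 if all members were equal) was 56.6, 51.2 and 49.6 in WT lung and 48.1, 48.5 and 46.8 in KO lung. All KO lungs lay below all WT lungs, by 4.67 genes on average (52.5 ± 3.67 against 47.8 ± 0.878, SD, n = 3). Without WT lung 1 the difference, KO minus WT, was −2.59 genes. Within the lungs of high Ubb the means were 53.9 in WT and 46.8 in KO, and within those of low Ubb 49.6 and 48.3. In spleen the numbers were 55.8, 50.2 and 44.6 in WT and 53, 50.4 and 50.8 in KO, and overlapped. Evenness on the scale of Pielou, where 1 is full evenness, was 0.877, 0.855 and 0.848 in WT lung and 0.841, 0.843 and 0.835 in KO lung, and 0.873, 0.850 and 0.824 against 0.862, 0.851 and 0.853 in spleen. At least 1 FPKM was reached by 76, 75 and 76 of 100 genes in KO lung and by 63, 59 and 53 in WT lung. A higher summed level brings more genes past a fixed limit, so this count does not measure breadth of usage. Genes above 0 numbered 92, 83 and 80 in WT lung and 86, 87 and 90 in KO lung, and overlapped. In spleen 91 to 95 genes reached 1 FPKM in each library. The lowest WT spleen, mouse 3, had Igkv5-39 and Igkv1-117 at 11.6% and 11.5% of its signal.

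The mixture of Igkv genes was compared between libraries by the share of the signal that would have to move from some genes to others to make both mixtures equal, a distance of 0% for the same mixture and of 100% for no gene in common. KO spleens differed from each other by 18.1 to 23.6% and WT spleens by 17.2 to 21.7%, while WT and KO spleens were 22.1 to 32.7% apart. WT lungs differed from each other by 16.4 to 23.6% and KO lungs by 21.5 to 29.7%. In KO mice, lung and spleen of the same mouse were close, at 19.4, 17.7 and 17.8% in mice 1, 2 and 3, against 21.3 to 30.7% between lung and spleen of different KO mice. For each of the 3 KO lungs, the nearest of the other 11 libraries was the spleen of its own mouse. In the other direction this held for KO spleens 2 and 3, while KO spleen 1 was nearest to KO spleen 2 (18.1%). In WT mice the distances were 24.6, 26.3 and 32.4% within a mouse and 25.8 to 33.6% between mice, so that the ranges overlapped. The nearest library of every WT lung was another WT lung. Among the spleens, WT lungs 1 and 2 were nearest to those of KO mice 1 and 3, and WT lung 3 to that of WT mouse 1. WT lungs had few Igkv transcripts, and how far low levels widen these distances was not tested.

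**Figure D4:**
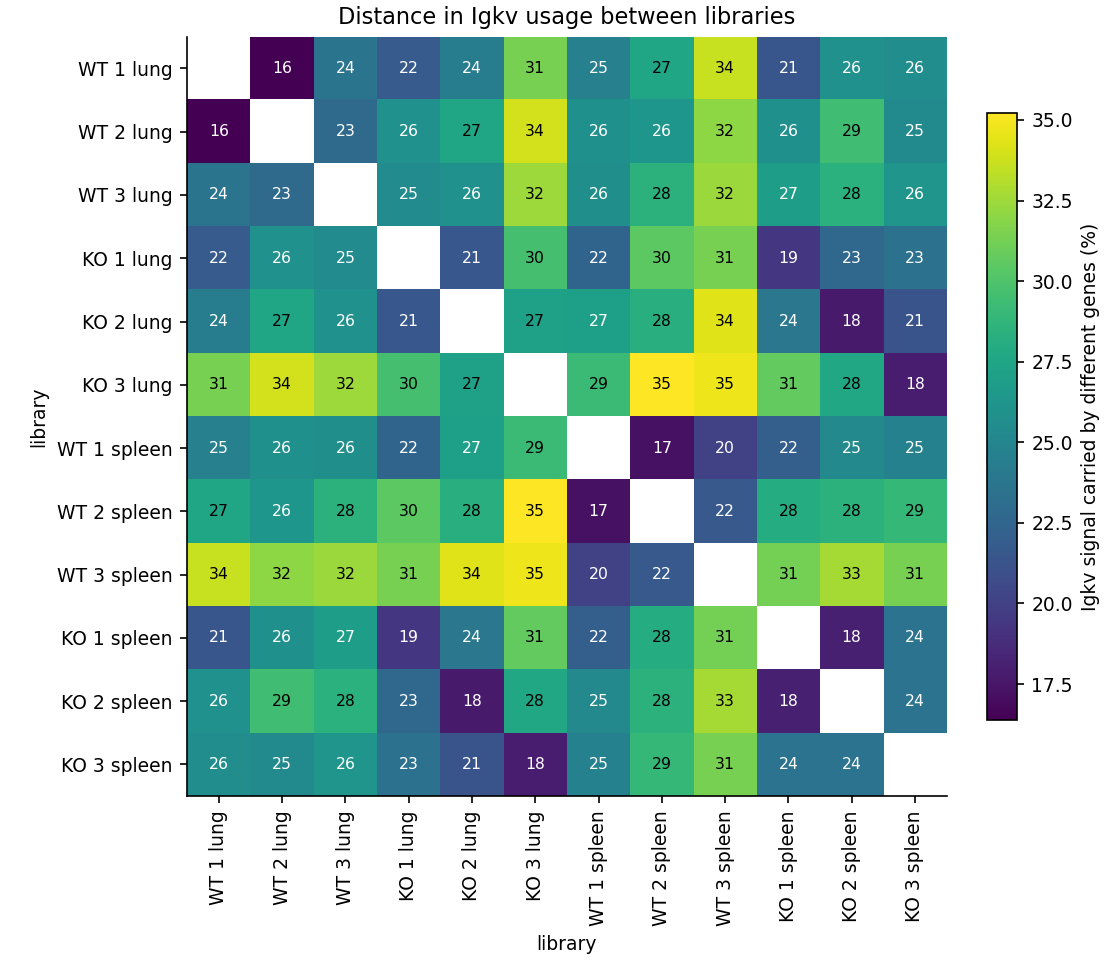
Distance in Igkv usage between each pair of the 12 libraries, as the percentage of the signal carried by different genes (dark for similar, yellow for different). The lung of each KO mouse is closest to its own spleen (18 to 19%), whereas the library closest to each WT lung is another WT lung.

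Single genes were also compared, by FPKM rather than by share. Among the 88 members with at least 0.1 FPKM in at least 2 of the 3 KO mice in both tissues, the KO mouse with the highest lung value was also the highest in spleen in 47 (53.4%), whereas 37.6% of 14112 genes other than immunoglobulin genes did so. In WT mice it was 24 of 86 members (27.9%), beside 33.8% of the other genes. The members share libraries, so these are descriptions without a test. FPKM values also carry the summed Igkv level, which among KO mice was highest in mouse 3 in both tissues. Among WT mice it was highest in mouse 2 in lung and in mouse 3 in spleen. The part of the summed level in these counts was not tested. A further rule asked for members at least 2 times higher in 1 KO mouse than in each of the other KO mice. It required the same mouse in both tissues and at least 1 FPKM in lung, and 12 members met it. Another 3 were so high in a different mouse in each tissue, and in WT mice 1 member met the rule. The rule was not applied to other genes, so the share of all genes that meet it is not known.

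KO mouse 3 carried 8 of these 12 members, and it also had the highest summed Igkv level of the KO mice in both tissues. Igkv4-90 had 7.36, 2.15 and 39.9 FPKM in the lungs and 41.3, 40.5 and 454 FPKM in the spleens of KO mice 1, 2 and 3, against at most 10.1 FPKM in any WT spleen. Igkv4-91, the next gene in the locus, had 5.76, 6.19 and 34.8 FPKM in KO lungs and 74.6, 99 and 223 FPKM in KO spleens. The V exons of this pair are 84.1% identical, so they are distinct sequences. Igkv9-124, Igkv4-53, Igkv6-20 and Igkv3-1 were also highest in mouse 3, with 29.2, 27.8, 14.2 and 15.2 FPKM in the lung of mouse 3. Igkv9-123 (0, 0 and 5.65 FPKM in KO lungs, 0.753, 4.6 and 16.4 FPKM in KO spleens) and Igkv4-71 (0, 0 and 1.3 and 0, 1.16 and 23.2 FPKM) were listed at 0 in the other KO lungs. KO mouse 1 was highest for Igkv11-125 (10.1, 0.313 and 1.12 FPKM in KO lungs, 44, 13.9 and 7.25 FPKM in KO spleens), the scarce Igkv1-132 and Igkv4-58, although the spleen of WT mouse 3 had as much Igkv4-58 (32.1, 18.9 and 81.2 FPKM in WT spleens, 79.3, 32.9 and 32 FPKM in KO spleens). KO mouse 2 was highest for Igkv5-37, with 0, 4.11 and 0.292 FPKM in KO lungs and 6.46, 16 and 2.83 FPKM in KO spleens. Igkv17-121 and Igkv1-99 were instead high in different mice, Igkv17-121 in the lung of mouse 2 and the spleen of mouse 3 (9.85, 54.3 and 19.6 and 143, 146 and 471 FPKM). These members were picked for their pattern after their values were seen.

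**Figure D5:**
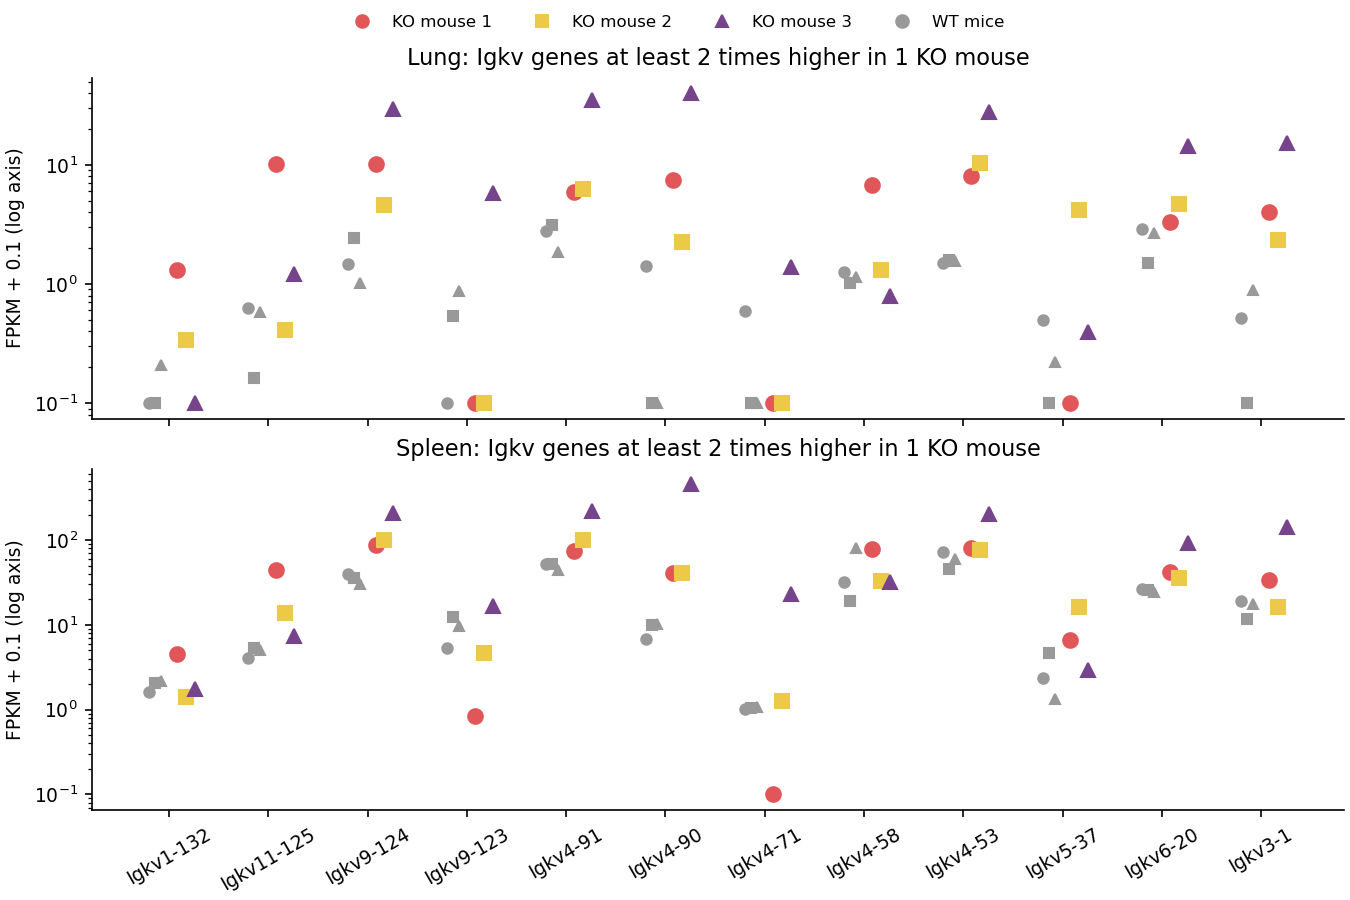
FPKM plus 0.1 on a log axis for the 12 Igkv genes that were at least 2 times higher in 1 KO mouse than in the other KO mice in both tissues, lung above and spleen below (coloured markers KO mice, grey markers WT mice). The choice of genes required the highest coloured marker to be the same mouse in both panels. That mouse was mouse 3 for Igkv9-124, Igkv9-123, Igkv4-91, Igkv4-90, Igkv4-71, Igkv4-53, Igkv6-20 and Igkv3-1.

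Some members were seen almost entirely in spleen. In WT mice the summed signal was 23.5 times higher in spleen than in lung, but the mean of Igkv5-39 was 161 times higher, that of Igkv4-86 154 times and that of Igkv8-16 143 times. Igkv7-33 had 23.2, 13.7 and 15.4 FPKM in WT spleen and 0.142, 0.551 and 0 FPKM in WT lung, and was at 0 in all 3 KO lungs with 10.5, 15.6 and 24.5 FPKM in KO spleen. Igkv12-89 and Igkv2-137 were 106 and 62.6 times higher in WT spleen. In KO mice the summed ratio was 12.7, and Igkv5-39 was near it with 13.3, with 8.0, 10.5 and 31 FPKM in KO lung and 2.75, 3.24 and 2.29 FPKM in WT lung. Igkv4-86 kept a ratio of 83.8. Its lungs had 1.03, 1.03 and 0.758 FPKM in WT and 2.76, 1.26 and 1.03 FPKM in KO. Among the 8 members highest in WT lung, Igkv19-93 had the lowest ratio of WT spleen to WT lung, 8.14. Some scarcer members had lower ratios, such as Igkv12-38 with 5.69 and Igkv3-3 with 1.41. These genes were picked after their values were seen, and tissue was not tested.

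Position and orientation in the locus separated the genotypes little. Genes on the minus strand, which join to Igkj by inversion, made up 53, 47.4 and 54.4% of the signal in WT lung, 51.4, 53.6 and 57.6% in KO lung, 53.3, 52.5 and 54.7% in WT spleen and 58.5, 57.8 and 51.9% in KO spleen. The groups overlapped in both tissues. The 25 genes nearest to Igkj1 gave 22.6, 18.9 and 19.1% in WT and 23.6, 20.0 and 22.5% in KO spleen, and the 25 most distant 35.2, 38.1 and 36.5% and 29.5, 32.3 and 36.4%, with overlap. Among the blocks of 25 genes in either tissue, the genotypes were separated in the third block from Igkj1 in spleen, with 18.9, 18.4 and 16.9% in WT and 20.3, 20.4 and 21.5% in KO. Reads could be divided between near-identical copies, so values are uncertain for the 12 members whose V exon is at least 97% identical to another member, the pairs Igkv17-127 and Igkv17-121, Igkv5-45 and Igkv5-43, Igkv6-29 and Igkv6-20, Igkv8-28 and Igkv8-19, Igkv8-26 and Igkv8-18, and Igkv3-10 and Igkv3-5. Igkv4-53 is also 97.7% identical to the pseudogene Igkv4-60.

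Markers of B-lineage and other lymphoid cells were measured beside these genes. Of 12 B cell genes, 0 passed in lung (limma, with 1 lower at an unadjusted p below 0.05) and 7 were lower in KO spleen (adjusted p below 0.05 without a fold limit), where 5.39% of all genes were lower, with median log2 fold changes of −0.23 and −0.62. Their summed level was 310.1, 404 and 252 FPKM in WT and 292, 348 and 231 FPKM in KO lung, and 3011, 2949.6 and 2895 against 1675, 2267 and 1554 FPKM in spleen. The B cell receptor subunit Cd79a had 63.8, 85.9 and 48.1 FPKM in WT lung and 61.5, 84.2 and 52.7 FPKM in KO lung. Of 12 plasma cell genes, 1 was higher in KO lung and 6 in KO spleen, where 0.296% and 3.66% of all genes were higher, and the list summed to 287, 299.9 and 317 FPKM in WT and 564, 540.1 and 549 FPKM in KO lung, and to 1164, 1131 and 1199.9 and 3030.3, 2948 and 3133 FPKM in spleen. Jchain, which links polymeric antibodies, was that lung gene, with 3.92, 4.22 and 14.2 FPKM in WT and 218, 182 and 234 FPKM in KO (log2 fold change 5.07, SE 0.47, adjusted p = 0.011). In spleen it had 679, 667 and 771 against 2474, 2418 and 2628 FPKM, so that most of the difference in the summed list lay in Jchain in both tissues. No defining marker of either list was at 0 throughout. The summed level of 7 T cell genes was 54.1, 81.5 and 56.1 FPKM in WT and 95.3, 88.5 and 91.3 FPKM in KO lung, and that of 5 genes of lymphoid stroma and follicles 94.4, 90.6 and 85 against 129, 125 and 107 FPKM, both without overlap. In lung 0 of 7 T cell genes and 0 of 3 tested stroma genes passed (limma). At an unadjusted p below 0.05, 6 and 2 were higher, beside 4.95% of all genes. In spleen the sums were 483, 685 and 580.3 against 370.1, 531 and 378 FPKM and 703, 975 and 722 against 533, 696 and 525 FPKM. The part of these lists in the Igkv result was not tested.

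The lambda light chain genes, which serve in place of kappa in a minority of mouse B cells, were compared as well. Iglv1 had 21.3, 19.9 and 16.1 FPKM in WT lung and 90.6, 70.1 and 143 FPKM in KO lung (log2 fold change 2.35, SE 0.26, adjusted p = 0.021), and 739, 626 and 583 against 1071, 909 and 1305 FPKM in spleen (log2 fold change 0.75, SE 0.16, adjusted p = 0.042), which missed the fold limit. It was the 1 of 6 lambda genes past adjusted p below 0.05 in each tissue. Iglc1, Iglc2 and Iglc3, the constant exons, had log2 fold changes of 1.26, 0.64 and 0.35 in lung and 0.51, -0.09 and -0.47 in spleen, and none passed. Among genes of light chain recombination, Rag1, a subunit of the recombinase, stayed at or below 0.730 FPKM in all 12 libraries. Igll1, part of the surrogate light chain of B cell precursors, had 34.2, 32.7 and 21.6 FPKM in WT spleen and 0.0632, 0 and 0 FPKM in KO spleen (log2 fold change -7.95, SE 0.27, adjusted p = 2.5e-05).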

How the data were processed

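Poly(A) libraries were prepared from lung and spleen of 3 WT and 3 β3-/- mice. The labels name a Qiagen RNeasy kit for extraction and the methods TRIzol. Per the submitters' processing notes, reads were trimmed with Trimmomatic, aligned to GRCm39 with HISAT2 and counted with featureCounts, whose versions are not given in the sources used here. The authors deposited FPKM per gene, 1 table per tissue, without counts, so depth is unknown and no counting interval is given. The program that computed FPKM is not given in the sources used here. Multi-mapped reads may have been dropped, which would lower near-identical genes, or divided, which would draw the values of such genes together.

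Igkv genes were identified by Ensembl identifier through GENCODE M39, in which 22101 of 22105 identifiers of each table were found. Per tissue, genes reaching 0.1 FPKM in 3 or more of 6 libraries were fitted as log2(FPKM + 0.1) with limma 3.58.1 (trended variance, R 4.3.3), and p-values were adjusted by Benjamini-Hochberg over all genes. Fold changes are on this scale and understate changes of low genes. A call needed an adjusted p below 0.05 and an absolute log2 fold change above 1. For 3 against 3 libraries an exact permutation test of a single value cannot go below 0.10, so sums, shares, evenness and distances are given per library without a test. The interaction of genotype and tissue was fitted over 12 libraries. The p-values within a tissue measure the spread between these mice. The interaction fit took lung and spleen of a mouse as independent, and its repeat with the mouse as a block kept the pairing.

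Named with values were up to 10 called members per comparison by absolute log2 fold change, the 8 most abundant members per group, the 5 largest and 5 smallest fold changes per tissue, the leading member of the 6 largest families, light chain constant genes and up to 3 genes of each marker list. Other members are named after their values were seen. The members and the lists of B cell, plasma cell, T cell, lymphoid stroma, lambda, lung, pancreas and Y-linked genes were chosen with earlier results of these data known. The fits were tested on simulated data. Alternatives varied the pseudocount, filter, scaling, variance model, replicate block and libraries. Those with the Ubb group, without the pancreas-containing spleens, and the distance with a mouse left out were chosen after seeing the data. Sequences were read from GRCm39.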

Additional observations from a re-analysis of the deposited data

Results flagged for a closer look

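The genotype effect on Igkv4-79 passed a test of the difference between lung and spleen that took the 12 libraries as independent, but not the test that kept the pairing by mouse. Its log2 fold change was -0.62 in lung and 1.71 in spleen, a difference of −2.33 (SE 0.38, adjusted p = 0.035, limma interaction over 12 libraries). All 3 KO lungs lay below the WT lungs and all 3 KO spleens above the WT spleens. The gene passed in 12 of 23 alternative analyses, with an adjusted p between 0.0069 and 0.117 and the same sign in all of them, and with the mouse as replicate block the adjusted p was 0.071. Its lung values lay between 0.573 and 1.34 FPKM.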

How the results depend on the processing

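The summed signal stayed higher in KO in every alternative run, and all 12 lung and 39 spleen calls kept their sign. In lung, 19 members passed with array weights and 30 in a single fit of all 12 libraries, beside 83 and 119 of all genes. Without 1 library in turn, 4 to 12 passed, beside 7 to 47 of all genes. In spleen, 19 passed without a filter, 16 without the variance trend, and 11 to 46 without 1 library in turn. Without the 2 pancreas-containing spleens 7 passed (an alternative chosen after seeing the data, with 4 libraries left). All genes passing numbered 201, 162, 57 to 782 and 51 in these settings, against 514 in the main fit. For the difference between tissues, 2 members passed with a filter at 1 FPKM, 3 after rescaling to TPM, 3 after quantile normalization and 3 with array weights. With the Ubb group as a term 0 passed, and without 1 library in turn 0 to 4. Of the members, 94 were tested with that filter and 98 in the other settings. Over all genes, 141 of 14022 passed with that filter, and 182, 155, 694 and 22 of 16312 in the settings named after it. The 4 members came without KO spleen 2, where 885 of 16254 genes passed. The cause of these shifts was not tested. Rescaling to TPM lowered the log2 ratio of the spleen sums from 1.32 to 1.11. Of 206 alternatives for sums, shares, evenness and distances, this was the 1 that moved by more than the spread between mice, although without 1 library in turn the difference in effective number (KO minus WT) ran from −1.58 to 4.05 in spleen and from −6.09 to −2.59 in lung.

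With the replicate number as a block, 5 members passed in lung and 45 in spleen, beside 20 and 645 of all genes. Deviations of same-numbered WT and KO mice correlated at 0.20, 0.03 and −0.04 in lung and 0.18, 0.27 and 0.08 in spleen. Lung and spleen of the same mouse correlated at 0.02, 0.09 and 0.06 in WT and 0.06, 0.07 and 0.14 in KO. Since true pairs scored no higher, this measure cannot show whether same-numbered WT and KO mice were paired. Leaving out pseudogenes was not run, since no member is one. The files give no depth, so a member listed at 0 can be scarce rather than absent.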
